A study of Mus musculus with 13 samples.

Results

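The inhibin, activin and follistatin genes were read as a set of 9 genes in mouse adrenal glands: the inhibin alpha subunit gene Inha, the beta subunit genes Inhba and Inhbb, the binding protein genes Fst and Fstl3, and the receptor genes Acvr1b, Acvr2a, Acvr2b and Tgfbr3. The members were chosen by name, and Inha was picked because its level was high 24 h after induction, so its values at that time are given as a description and without a test. Of the 9 genes, 7 had transcripts listed for the glands taken before induction and at 8 weeks, and 8 had transcripts listed at 24 h. The 7 genes listed in every table entered a fit of 14078 genes. Acvr2b was listed with the 24 h libraries only, and Inhba is not analysed here.

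The glands came from C57BL/6 mice in which tamoxifen (TAM) induced the deletion of Star, the gene of the protein that moves cholesterol into mitochondria for steroid synthesis. They were collected before TAM in 5 samples, 24 h after TAM in 4 samples and 8 weeks after TAM in 4 samples, and polyadenylated RNA was sequenced from stranded libraries. The labels give no age, no sex, and no promoter or cell type that drives the recombinase, and they do not say that replicates are separate animals. Every p therefore sets a group difference against the spread between these samples only, and cannot be carried over to animals. No group received TAM without the deletion, so the time, the drug and the loss of Star cannot be told apart.

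As background, an inhibin alpha subunit joined to a beta subunit forms an inhibin, whereas a pair of beta subunits forms an activin. Activins bind the type II receptors encoded by Acvr2a and Acvr2b, which recruit the type I receptor encoded by Acvr1b and act through SMAD2 and SMAD3. Follistatin (Fst) and follistatin-like 3 (Fstl3) hold activins away from their receptors, and inhibins block the type II receptors with the help of betaglycan (Tgfbr3). The adrenal cortex makes inhibin alpha, and mice that lack Inha develop adrenocortical tumours once their gonads are removed.

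Listed reads per library ranged from 17331673 to 27309429. Star, the deleted gene, was at 3207 to 4239 FPKM (fragments scaled by transcript length and by the size of the library) before TAM, at 17.4 to 626 FPKM at 24 h and at 85.9 to 202 FPKM at 8 weeks. Cortex markers were present in every group, and their summed level was 18867 to 25032 FPKM before, 4440 to 19472 FPKM at 24 h and 1602 to 3833 FPKM at 8 weeks. The library of 24 h replicate 3 stood apart from the other 12. Gata4, a transcription factor gene of the gonads and the fetal adrenal, was at 83.0 FPKM in it and at 0.773 to 1.65 FPKM in the other 24 h libraries. Nr5a2 was at 32.5 FPKM there against 0.632 to 0.746 FPKM in the other 24 h libraries, and Gdf9, an oocyte growth factor gene listed at 24 h only, was at 49.9 FPKM against 0.626 to 0.834 FPKM. Before replicate 1 also stood apart: Gata4 was at 6.81 FPKM against 0.567 to 0.955 FPKM in the other before libraries, and Foxl2, a granulosa cell gene, was at 5.56 FPKM against 0.0139 to 0.257 FPKM. Of 9 markers of gonad-type cells only Gata4 and Sox9 were in every table. Their summed level was 1.08 to 7.52 FPKM before, 1.94 to 84.3 FPKM at 24 h and 1.45 to 3.14 FPKM at 8 weeks. The highest sums, in 24 h replicate 3 and before replicate 1, were mostly Gata4 (83.0 and 6.81 FPKM). For Sox9 the log2 fold change at 24 h against before was 1.06, and 1.07 without 24 h replicate 3. Granulosa cells of the ovary are a known source of Inha, Inhbb and Fst transcripts. In before replicate 1, Inha and Fst were at 11.7 and 0.0831 FPKM, the lowest of the before libraries. Inhbb was at 1.84 FPKM there, within the range of the other before libraries. The part of gonad-type cells in the levels of these 3 members in 24 h replicate 3 and before replicate 1 was not tested. The fold changes of members at 24 h are given with and without 24 h replicate 3.

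**Figure D1:**
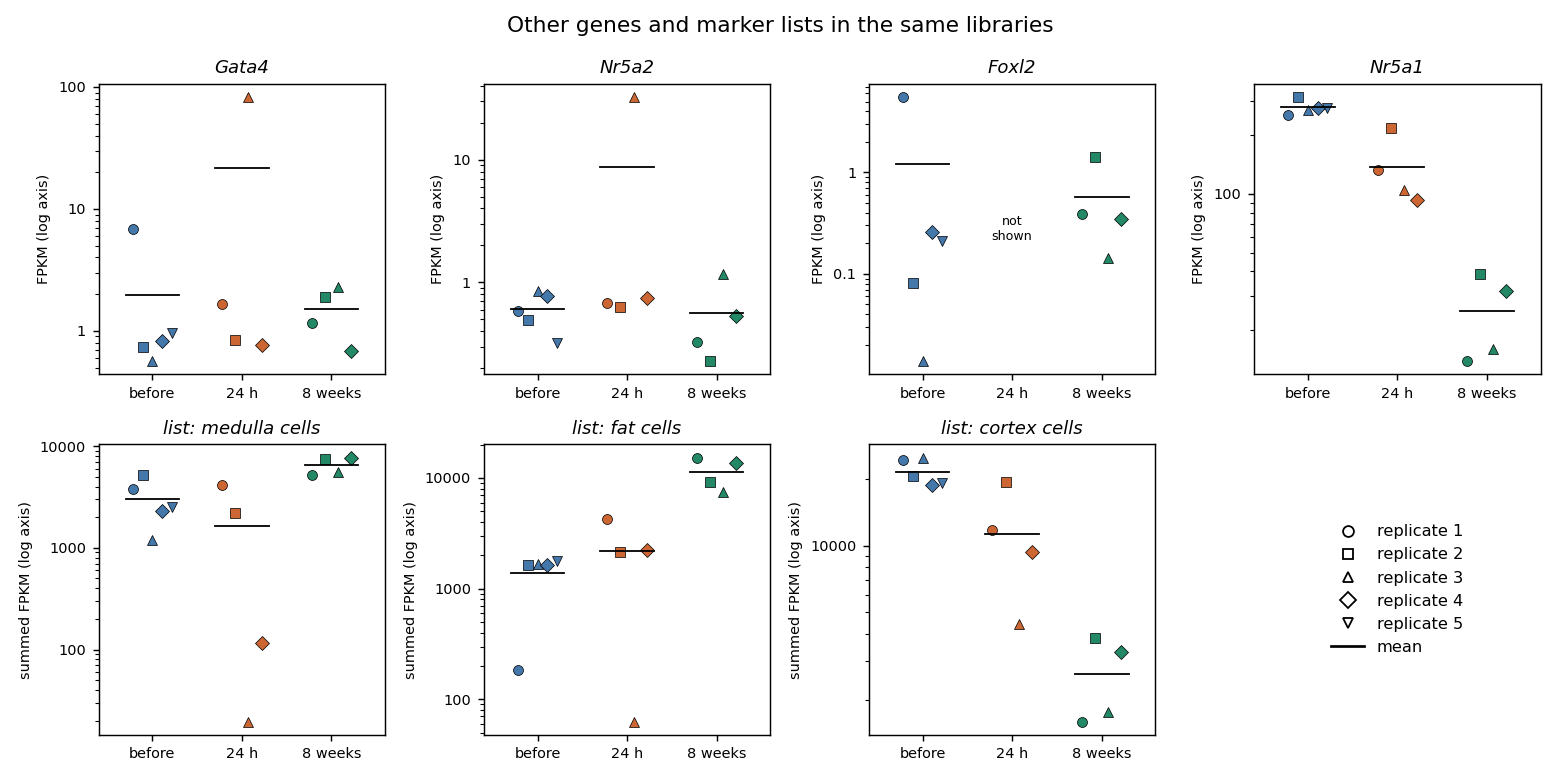
FPKM of 4 genes and summed FPKM of 3 marker lists in every library, on log axes, with bars at the group means. The triangle at 24 h is replicate 3, where Gata4 was at 83.0 FPKM and the medulla and fat lists were at 19.6 and 62.8 FPKM; Foxl2 is shown for the groups in which it was listed.

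Before TAM, Tgfbr3 had the highest level of the members, with a mean of 46.2 ± 6.16 FPKM (SD, n = 5). Inha followed at 15.6 ± 3.72 FPKM, and neither gene's range touched that of a neighbour. Below them, Fstl3 (7.79 ± 1.91 FPKM), Acvr2a (5.92 ± 1.45 FPKM) and Acvr1b (4.5 ± 0.99 FPKM) overlapped their neighbours in this order. Inhbb (1.5 ± 0.593 FPKM) and Fst (0.446 ± 0.303 FPKM) were the lowest of the 7, and their ranges overlapped. At 24 h without replicate 3 the order was Inha (43.7 ± 16.9 FPKM, n = 3), Tgfbr3 (28.8 ± 8.11 FPKM), Fstl3 (13.8 ± 11.3 FPKM), Acvr2a (5.68 ± 0.483 FPKM), Inhbb (5.55 ± 7.67 FPKM), Acvr1b (5.22 ± 0.956 FPKM), Fst (0.99 ± 0.754 FPKM) and Acvr2b (0.527 ± 0.2 FPKM). Of these neighbours, only Acvr1b and Fst did not overlap. At 8 weeks the order was Tgfbr3 at 17.6 ± 2.07 FPKM (n = 4), then Inha at 10.6 ± 5.20 FPKM, whose range overlapped those above and below it. Acvr1b, Fstl3 and Acvr2a lay between 4.75 and 5.21 FPKM with overlapping ranges, and Fst and Inhbb were at 3.12 ± 0.567 and 2.64 ± 0.537 FPKM, also overlapping.

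**Figure D2:**
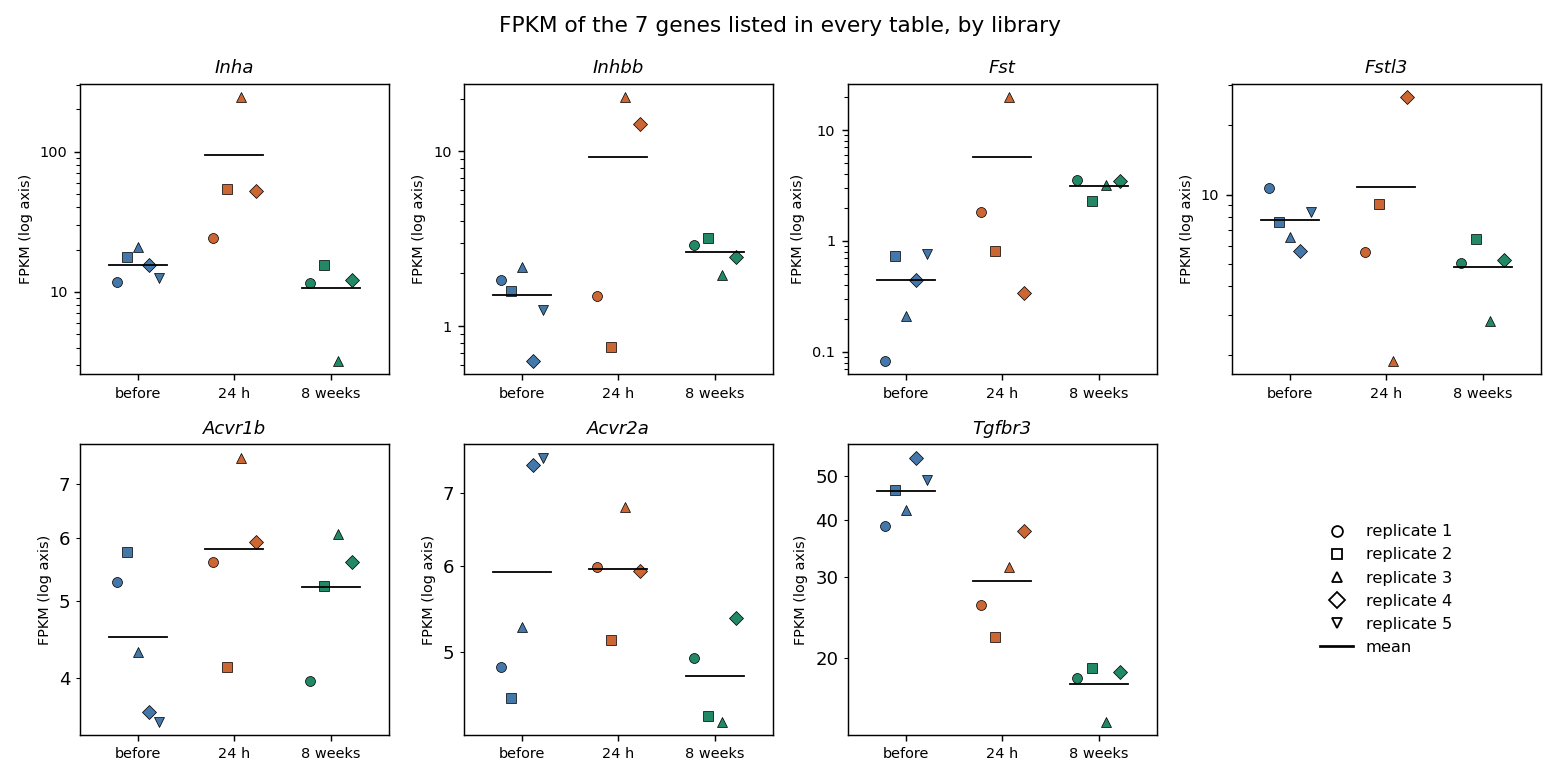
FPKM of the 7 members listed in every table, 1 point per library and a bar at the group mean, on log axes that differ between panels. All 4 Fst points at 8 weeks lie above all 5 before, and all 4 Tgfbr3 points at 8 weeks lie below all 5 before and all 4 at 24 h.

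Among the ligand subunits, Inha (GRCm38/mm10 chromosome 1, 75507077 to 75510354, plus strand) was at 11.7, 17.6, 20.7, 15.5 and 12.5 FPKM in before replicates 1 to 5. At 24 h it was at 24.3, 54.5, 246 and 52.3 FPKM in replicates 1 to 4, and at 8 weeks at 11.6, 15.4, 3.21 and 12.1 FPKM. Each 24 h library was above each before library and each 8 week library, with replicate 3 far above the other 3, whereas the before and 8 week libraries overlapped. The 24 h values chose this gene, and its fitted log2 difference from before, 2.56, was 1.57 without 24 h replicate 3 and 1.48 without before replicate 1 as well. The log2 difference from 24 h to 8 weeks was -3.02, and -2.07 without 24 h replicate 3.

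The comparison of Inha at 8 weeks with before was not used to choose it, although the before samples are shared. The log2 fold change was -0.46 (SE 0.55, 95% interval -1.65 to 0.73), with an adjusted p of 0.535, and -0.50 with an adjusted p of 0.281 without 24 h replicate 3. Inha therefore did not pass the test at 8 weeks, and the interval spans both a fall and a rise. In the same comparison Nr5a1, the steroidogenic factor 1 gene that marks cortical cells and acts on Inha, fell by 3.36 on the log2 scale (adjusted p = 1.95e-05). Nr5a1 was at 253 to 315 FPKM before and at 13.9 to 38.9 FPKM at 8 weeks. The ratio of Inha to Nr5a1 FPKM, chosen after the values were seen, was 0.0451 to 0.0771 before and 0.199 to 0.836 at 8 weeks. These ranges did not overlap, but Nr5a1 fell whereas Inha did not pass the test, and the ratio carries no test. At 24 h, where the values of Inha chose the gene, the ratio was 0.183 to 2.36 and is a description. In bulk tissue, fewer cells of a type and less RNA per cell cannot be told apart.

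Inhbb, which encodes the beta B subunit of inhibin B and activin B (chromosome 1, 119415465 to 119422248, minus strand), was at 1.84, 1.60, 2.18, 0.632 and 1.24 FPKM before. At 24 h it was at 1.49, 0.764, 20.5 and 14.4 FPKM, so replicates 3 and 4 were high and replicates 1 and 2 lay within the range before. The rise at 24 h was 2.62 on the log2 scale (SE 0.74, adjusted p = 0.0261). Leaving out 24 h replicate 3 gave a log2 difference of 2.02 (adjusted p = 0.0574), and leaving out 24 h replicate 4 gave 2.22 (adjusted p = 0.0750), so the call rested on both libraries. It was also lost without before replicate 2, 4 or 5, with log2 values of 2.43 to 2.64. With library weights that counted 24 h replicates 3 and 4 least, it was 0.31 (adjusted p = 0.669). The summed level of 8 medulla markers was 19.6 and 117 FPKM in 24 h replicates 3 and 4, against 2220 and 4135 FPKM in the other 24 h libraries and 1187 to 5200 FPKM before. None of these 8 markers was listed at 0, and the part of this difference in the Inhbb result was not tested.

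At 8 weeks Inhbb was at 2.91, 3.21, 1.97 and 2.49 FPKM, and its highest before library overlapped the lowest of these. The log2 fold change from before was 0.93 (SE 0.72, 95% interval -0.63 to 2.49, adjusted p = 0.331). In a fit of the before and 8 week libraries alone it was 0.90 with an adjusted p of 0.0344; the spread in that fit does not include the 24 h libraries. From 24 h to 8 weeks the log2 difference was -1.69 (adjusted p = 0.132), and -1.12 (adjusted p = 0.278) without 24 h replicate 3. The ratio of Inha to Inhbb FPKM was 6.38 to 24.5 before and 1.63 to 4.88 at 8 weeks, and at 24 h it ran from 3.64 in replicate 4 to 71.3 in replicate 2. The ranges before and at 8 weeks did not overlap; this ratio was chosen after the values were seen and carries no test.

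Among the binding proteins, Fst (chromosome 13, 114452262 to 114458951, minus strand) was listed as 2 transcript models in every table. They share exons 2 to 5 and differ in what follows. The long model encodes 344 residues and carries a tail that the short model of 317 residues lacks; the long protein is known mainly from the circulation and the short one from cell surfaces. The 2 runs below, from the GENCODE transcripts matched to these models, show where they part: lower case is the end of exon 5 and capitals are the coding bases that follow, which in the short model complete a stop codon with the last lower-case base.
Fst long model: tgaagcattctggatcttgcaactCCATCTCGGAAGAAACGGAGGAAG
Fst short model: tgaagcattctggatcttgcaactGA
The capitals of the long model lie at chr13:114453482-114453505 and those of the short model at chr13:114453804-114453805, so the short model keeps 300 bases that the long model splices out. Another model, which was listed before and at 8 weeks but not at 24 h, encodes 343 residues and differs from the long model in the 3 bases at the start of exon 5, capitals at chr13:114454508-114454510.
Fst model with the 3 bases: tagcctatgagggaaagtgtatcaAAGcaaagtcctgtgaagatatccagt
Fst model without the 3 bases: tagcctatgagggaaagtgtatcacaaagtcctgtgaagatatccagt

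Over the 2 models listed in every table, Fst was at 0.0831, 0.730, 0.210, 0.447 and 0.762 FPKM before. At 8 weeks it was at 3.53, 2.30, 3.18 and 3.47 FPKM, so each 8 week library was above each before library. Fst shares 115 exonic bases with Gm47040 on the opposite strand. Its levels rest on 6 to 48 estimated reads per library before and on 144 to 272 at 8 weeks. Fst rose by 2.93 on the log2 scale (SE 0.96, 95% interval 0.86 to 5.00, adjusted p = 0.0295), and by 2.89 (adjusted p = 0.00144) without 24 h replicate 3. The call was lost when before replicate 1, 3 or 4 or 8 week replicate 1, 3 or 4 was left out, with log2 values of 2.66 to 2.91 in those fits. Using the replicate number as a block lost the call too, so 7 of 20 alternatives did so. DESeq2 gave no p for this gene. Over the 20 alternatives with a p the log2 value ran from 2.52 to 3.16.

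At 24 h Fst was at 1.82, 0.817, 19.9 and 0.338 FPKM, with replicate 3 high, replicates 1 and 2 above the highest before library, and replicate 4 within the range before. The log2 rise from before was 3.57 (adjusted p = 0.0222), and 1.19 (adjusted p = 0.156) without 24 h replicate 3. The call was also lost without before replicate 3 (3.39, adjusted p = 0.0506) and without before replicate 4 (3.56, adjusted p = 0.0523). From 24 h to 8 weeks the log2 difference was -0.64 (adjusted p = 0.654), and without 24 h replicate 3 it turned to 1.70 (adjusted p = 0.064). The direction of Fst from 24 h to 8 weeks thus depended on 1 library.

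The long model was at 0.0289 to 0.494 FPKM before and at 1.95 to 2.57 FPKM at 8 weeks, and the short model at 0.0542 to 0.268 and 0.348 to 1.52 FPKM. For both models each 8 week library was above each before library. The short model made up 34.3 to 65.3% of the summed FPKM of both before, 16.9 to 35.4% at 24 h and 15.1 to 43.0% at 8 weeks, and these ranges overlapped. In 24 h replicate 3 the long model was at 16.5 FPKM and the short one at 3.36 FPKM. The model without the 3 bases was at 0 to 0.400 FPKM before and 0.255 to 0.753 FPKM at 8 weeks, again overlapping. It was not listed at 24 h and is left out of the shares above. In before replicates 1 and 3 it was at 0.165 and 0.368 FPKM, above both counted models. The shares before and at 8 weeks are therefore not shares of all Fst models.

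**Figure D3:**
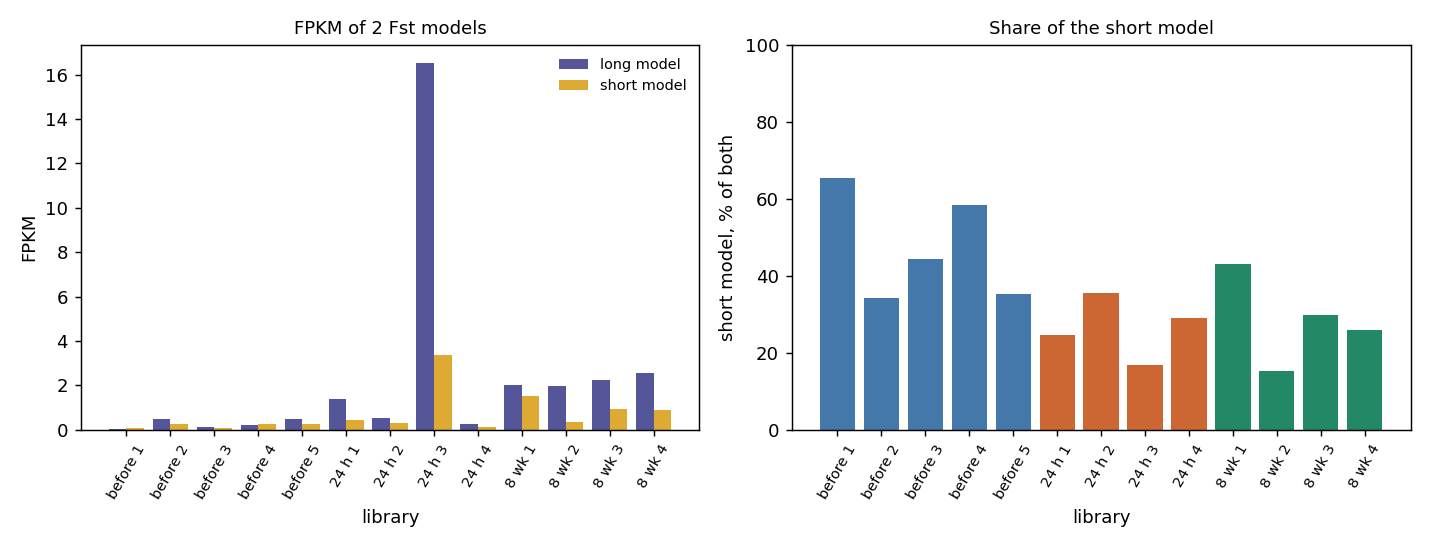
Left, FPKM of the long and short Fst models in each library; right, the short model as a percent of their sum, with before in blue, 24 h in orange and 8 weeks in green. The long model reached 16.5 FPKM in 24 h replicate 3 and 1.95 to 2.57 FPKM at 8 weeks; the share of the short model overlapped between the groups.

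Fstl3 (chromosome 10, 79777274 to 79782630, plus strand) encodes a secreted relative of follistatin. It was at 10.7, 7.62, 6.56, 5.68 and 8.42 FPKM before, at 5.66, 9.07, 1.89 and 26.6 FPKM at 24 h, and at 5.04, 6.41, 2.82 and 5.18 FPKM at 8 weeks. The spread was widest at 24 h, where replicate 4 was the highest of the 13 libraries and replicate 3 the lowest. Its log2 fold change was -0.56 from before to 8 weeks (SE 0.57, adjusted p = 0.457) and 0.56 from before to 24 h (SE 0.56, adjusted p = 0.532), which was 0.94 (adjusted p = 0.114) without 24 h replicate 3 and turned to -0.46 without 24 h replicate 4. From 24 h to 8 weeks it was -1.12 (adjusted p = 0.188), and -1.54 (adjusted p = 0.0245) without 24 h replicate 3. The gene shares 1157 exonic bases with Prss57 on the opposite strand, and the sources used here do not say whether strand entered the counting.

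The 250 bases before the Fstl3 start are shown because this start agrees between the deposited transcript and the RefSeq table (GRCm38.p6), which also held for Inhbb and Acvr2a. They lie at chr10:79777024-79777273 on the plus strand, with matches to the core SMAD letters CAGAC in capitals, both on the opposite strand.
Fstl3 promoter: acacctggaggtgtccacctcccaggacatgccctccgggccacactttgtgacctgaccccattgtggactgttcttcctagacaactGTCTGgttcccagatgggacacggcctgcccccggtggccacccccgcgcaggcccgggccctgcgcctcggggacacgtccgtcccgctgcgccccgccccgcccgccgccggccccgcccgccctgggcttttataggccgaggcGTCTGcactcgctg
The letters CAGAC occur on either strand in 42.2% of 32851 RefSeq promoters of this length, the Acvr2a window held them once, and the Inhbb window held none of the 5 motifs searched. The other motifs were TGACG (the core of a cyclic AMP response element, in 17.8% of promoters), AAGGTCA (the NR5A site, in 4.08%), AGATAA (bound by GATA factors, in 9.99%) and GTCTAGAC (the SMAD palindrome, in 0.167%). CAGAC and the palindrome share the letters AGAC, and neither holds the other.

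Of the receptors, Tgfbr3 changed in every comparison. This gene (chromosome 5, 107106570 to 107289595, minus strand) encodes betaglycan, the co-receptor through which inhibins and TGF-beta 2 act. It was at 38.9, 46.4, 42.0, 54.8 and 48.9 FPKM before, at 26.1, 22.3, 31.6 and 37.9 FPKM at 24 h, and at 18.1, 19.0, 14.5 and 18.6 FPKM at 8 weeks. No group overlapped another, and 24 h replicate 3 lay inside the range of its group. Tgfbr3 fell by 0.62 on the log2 scale at 24 h (SE 0.17, adjusted p = 0.0199), and by 0.59 (adjusted p = 0.0309) without 24 h replicate 3. That call was lost without before replicate 4 or 5 or without 24 h replicate 1 or 2, with log2 values of -0.59 to -0.51 and adjusted p-values of 0.0523 to 0.0624. Using the replicate number as a block lost it too. At 8 weeks it fell by 1.27 from before (SE 0.17, 95% interval -1.63 to -0.90, adjusted p = 0.000128), a call that held under each of the 21 alternatives. Between 24 h and 8 weeks it fell by 0.65 (SE 0.17, adjusted p = 0.0227), and by 0.71 (adjusted p = 0.0161) without 24 h replicate 3; without 8 week replicate 3 the log2 difference was -0.61 (adjusted p = 0.0535). Tgfbr3 shares 297 exonic bases with Gm43422 on the same strand. Its read counts were whole numbers in each library, so no reads were seen to be split between genes. Whether reads from the shared bases were counted for Tgfbr3 was not tested.

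Acvr1b, the type I receptor that activins use (chromosome 15, 101174125 to 101212601, plus strand), was at 5.28, 5.76, 4.32, 3.63 and 3.53 FPKM before, at 5.60, 4.14, 7.56 and 5.93 FPKM at 24 h, and at 3.97, 5.22, 6.07 and 5.59 FPKM at 8 weeks. The groups overlapped, with 24 h replicate 3 highest. Its log2 fold change was 0.35 at 8 weeks (95% interval -0.11 to 0.82, adjusted p = 0.215) and 0.38 at 24 h (95% interval -0.08 to 0.85, adjusted p = 0.243), both against before. Without 24 h replicate 3 the value at 24 h was 0.30 (adjusted p = 0.330).

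Acvr2a, a type II receptor for activins (chromosome 2, 48814109 to 48903264, plus strand), was at 4.85, 4.53, 5.27, 7.42 and 7.54 FPKM before, at 5.98, 5.12, 6.80 and 5.94 FPKM at 24 h, and at 4.94, 4.36, 4.31 and 5.37 FPKM at 8 weeks. Replicates 4 and 5 before were the highest of the 13 libraries, and the groups overlapped. Its log2 fold change was -0.19 at 8 weeks (95% interval -0.55 to 0.18, adjusted p = 0.411) and 0.03 at 24 h (95% interval -0.33 to 0.39, adjusted p = 0.924), which was 0.02 (adjusted p = 0.941) without 24 h replicate 3. The ratio of Tgfbr3 to Acvr2a FPKM, chosen after the values were seen, was 6.49 to 10.2 before, 4.35 to 6.37 at 24 h and 3.37 to 4.36 at 8 weeks, so the ranges before and at 8 weeks did not overlap. Acvr2a shares 446 exonic bases with Orc4 on the opposite strand.

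Acvr2b, the other activin type II receptor (chromosome 9, 119402501 to 119433506, plus strand), was at 0.487, 0.350, 0.469 and 0.744 FPKM at 24 h, from 15 to 28 estimated reads per library. These levels were below those of Acvr2a in the same libraries. Read from the values, listing required 16 reads in 4 before libraries or in 3 libraries of a later group, so its levels before and at 8 weeks are not analysed here.

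**Figure D4:**
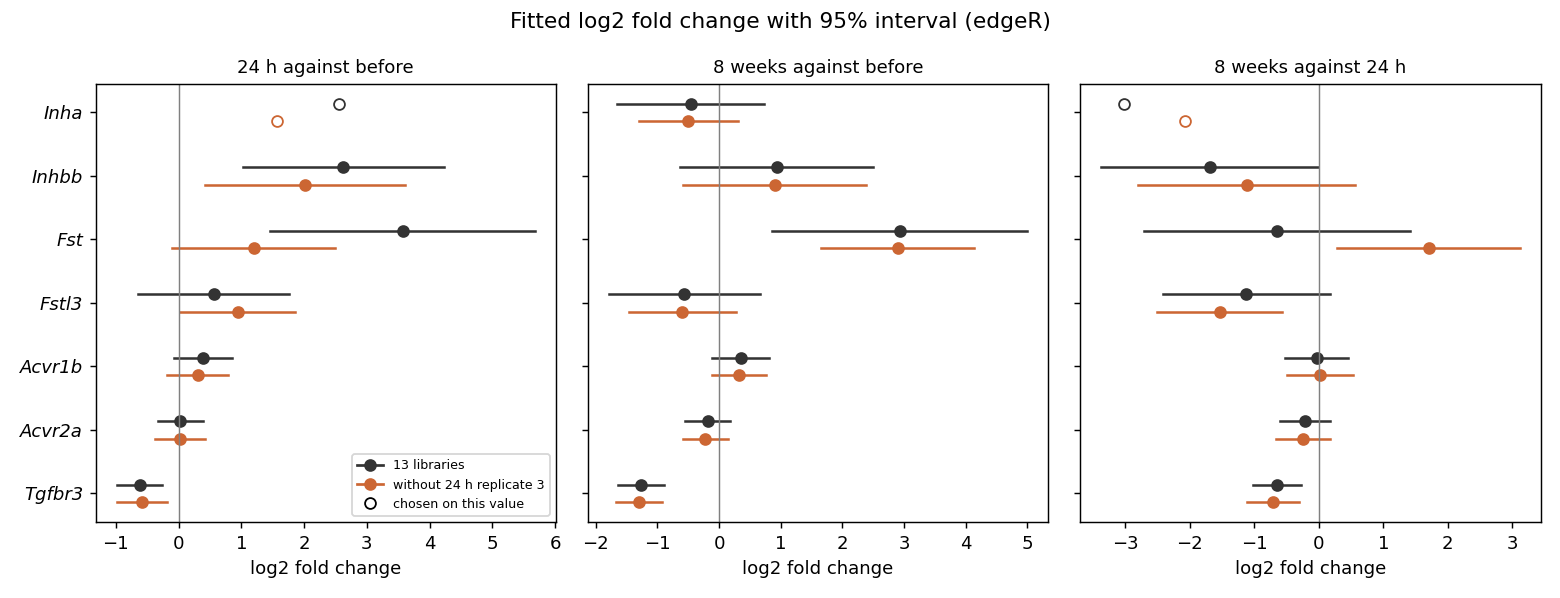
Fitted log2 fold change of the 7 members in 3 comparisons, with 95% intervals, from all 13 libraries (dark) and without 24 h replicate 3 (orange). Open circles are the Inha values that chose the gene; Tgfbr3 lies below 0 in each comparison, and Fst from 24 h to 8 weeks changes sign between the fits.

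Between before and 8 weeks, 2 of the 7 members passed an adjusted p of 0.05, Fst upwards and Tgfbr3 downwards, while 36.9% of the 14078 genes did so (20.5% higher and 16.4% lower). In a fit of these 2 groups alone 4 of the 7 passed (Inhbb and Fst upwards, Fstl3 and Tgfbr3 downwards), beside 52.9% of all genes, and without 24 h replicate 3 the calls were Fst and Tgfbr3, beside 47.6% (24.3% higher and 23.4% lower). These counts were near the shares of all genes. The median log2 fold change of the 7 was -0.19 against 0.03 for all genes. Without a scaling factor between libraries the median of all genes moved from 0.03 to -0.10, and higher calls were 44.2% of all calls in place of 55.5%; the direction of Fst and Tgfbr3 was the same. In the authors' deposited table of this comparison, Tgfbr3 had a log2 ratio of -1.39 (q = 0.000576), and Fst had 3.67 for the long model (q = 0.0159) and 2.40 for the short one (q = 0.0282); the Fst model without the 3 bases had 3.31 and did not pass (q = 0.343). Inhbb (0.914, q = 0.0966), Fstl3 (-0.706, q = 0.0893), Inha (-0.738, q = 0.257), Acvr1b (0.221, q = 0.399) and Acvr2a (-0.292, q = 0.254) did not pass a q of 0.05 in that table.

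Between before and 24 h, 3 of the 6 members other than Inha passed, Inhbb and Fst upwards and Tgfbr3 downwards, beside 19.2% of all genes (12.6% higher and 6.63% lower). Without 24 h replicate 3, Tgfbr3 was the 1 member called, beside 28.4% of all genes (16.6% higher and 11.8% lower), as it was in a fit of these 2 groups alone, beside 15% of all genes. Between 24 h and 8 weeks, Tgfbr3 was the 1 member of 6 called, downwards, beside 20.8% of all genes (10.1% higher and 10.6% lower), and none of the 6 was called in a fit of these 2 groups alone, beside 6.94%. Without 24 h replicate 3, Tgfbr3 and Fstl3 were both called downwards, beside 30.5% of all genes (12.8% higher and 17.7% lower). In that comparison higher calls over all genes were 48.9% of calls, and 36.1% without a scaling factor. The 3 comparisons share their groups of samples.

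The signal carriers and modulators of the pathway, among them the SMADs, other receptors and the enzymes that cut the ligand precursors, moved in both directions at 8 weeks: of 21 genes tested 4 rose and 6 fell, beside 20.5% and 16.4% of all genes, and 5 rose and 9 fell without 24 h replicate 3, beside 24.3% and 23.4%. Fstl1, a secreted glycoprotein gene related to follistatin, rose by 1.68 on the log2 scale (adjusted p = 9.97e-05), from 15.4 to 25.5 FPKM before to 41.9 to 65.3 FPKM. Pcsk6, a proprotein convertase gene, rose by 2.50 (adjusted p = 0.000254), from 1.74 to 2.97 FPKM to 10.3 to 15.2 FPKM. Pcsk5, another convertase gene, fell by 3.04 (adjusted p = 0.000221), from 34.1 to 82.5 FPKM to 3.57 to 8.07 FPKM, so the convertase genes moved in opposite directions. Smad2, which carries the activin signal to the nucleus, fell by 0.79 (adjusted p = 0.000282), from 9.85 to 12.2 FPKM to 4.80 to 6.50 FPKM. Smad3 was at 8.59 to 12.02 FPKM before and 5.81 to 7.26 FPKM at 8 weeks, a log2 fold change of -0.47 that did not pass (adjusted p = 0.107). Tgfbr1, the type I receptor of TGF-beta, rose by 0.82 (adjusted p = 0.000391). At 24 h 6 of the 21 rose and none fell, beside 12.6% and 6.63% of all genes. Without 24 h replicate 3 the counts were 9 and 2, beside 16.6% and 11.8%. In a fit of the 2 groups alone they were 3 and 0, beside 9.19% of all genes higher. The median of the 21 was -0.07 at 8 weeks and 0.51 at 24 h, against 0.03 for all genes in both comparisons, and the 24 h median was 0.33 without 24 h replicate 3.

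Of 14 other ligand genes of the TGF-beta family, 9 were tested. At 8 weeks 4 rose and 1 fell, beside 20.5% and 16.4% of all genes. Without 24 h replicate 3, 6 rose and 2 fell, beside 24.3% and 23.4%. Bmp6 rose by 1.49 on the log2 scale (adjusted p = 5.30e-05), from 2.48 to 3.39 FPKM before to 5.97 to 8.33 FPKM. Tgfb2 rose by 1.35 (adjusted p = 0.00138) and Tgfb1 by 1.21 (adjusted p = 0.00210). Bmp7 fell by 2.08 (adjusted p = 0.00399), from 11.8 to 17.6 FPKM to 2.12 to 3.93 FPKM. The median of the 9 was 0.79, against 0.03 for all genes. At 24 h 4 of the 9 rose and none fell, with and without 24 h replicate 3, beside 12.6% and 16.6% of all genes higher; the median was 0.65, and 0.47 without that library.

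Of 12 genes known to be switched on by SMAD2 and SMAD3, 6 rose at 8 weeks and none fell, beside 20.5% and 16.4% of all genes, with a median of 0.55 against 0.03 for all genes. Pmepa1, which encodes a membrane protein that restrains SMAD signalling, rose by 1.80 on the log2 scale (adjusted p = 9.48e-05), from 7.66 to 10.1 FPKM before to 18.7 to 33.5 FPKM. The collagen gene Col1a1 rose by 1.89 (adjusted p = 0.00126), the smooth muscle gene Tagln by 1.39 (adjusted p = 0.00803) and Ltbp2, which encodes a matrix protein, by 2.05 (adjusted p = 0.00929). Smad7, the inhibitory SMAD, had a log2 fold change of 0.37 (adjusted p = 0.123). At 24 h 7 of the 12 rose and none fell, with and without 24 h replicate 3, and 3 rose in a fit of the 2 groups alone, beside 12.6%, 16.6% and 9.19% of all genes higher. The median at 24 h was 1.02, and 0.78 without 24 h replicate 3. Col1a1 is also a marker of capsule cells and fibroblasts, whose 8 markers summed to 170 to 457 FPKM before, 597 to 1015 FPKM at 24 h and 983 to 1709 FPKM at 8 weeks; the part of this in the result was not tested.

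Of 7 factors known to act on the Inha promoter, 2 fell and none rose at 8 weeks, beside 16.4% and 20.5% of all genes: Nr5a1, given above, and Gata6, which fell by 1.45 on the log2 scale (adjusted p = 4.63e-05), from 18.9 to 26.1 FPKM before to 5.63 to 8.56 FPKM. At 24 h Nr5a2 rose and Nr5a1 and Gata6 fell, beside 12.6% of all genes higher and 6.63% lower. When Inha was highest, at 24 h, Nr5a1 was at 93.6 to 218 FPKM and had fallen by 1.00 (adjusted p = 0.0378), and Gata6 was at 10.95 to 20.4 FPKM and had fallen by 0.52 (adjusted p = 0.0403). Without 24 h replicate 3, Gata6 was the 1 factor of the 7 called at 24 h, beside 28.4% of all genes. Nr5a1 was then at -0.84 (adjusted p = 0.0681) and Nr5a2 at 0.25 (adjusted p = 0.748). Nr4a1, an early response gene, was at 186, 245, 10.8 and 293 FPKM at 24 h and at 51.1 to 230 FPKM before, so replicate 3 was the lowest of these libraries.

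The marker lists changed over the same samples. At 8 weeks 6 of 10 cortex markers fell and none rose. Of the macrophage markers 8 of 8 rose, and 4 of 8 fat markers rose and none fell. Beside these, 20.5% of all genes rose and 16.4% fell. Without 24 h replicate 3, 9 cortex markers fell and 7 fat markers rose, beside 24.3% of all genes higher and 23.4% lower. The macrophage list summed to 364 to 1034 FPKM before and 5006 to 9840 FPKM at 8 weeks. The fat list summed to 186 FPKM in before replicate 1, to 1631 to 1781 FPKM in the other before libraries and to 7443 to 15290 FPKM at 8 weeks. These shifts stood beside the rise of Fst and the fall of Tgfbr3, and their part in both was not tested. In 24 h replicate 3, where Inha, Inhbb and Fst were highest, the fat list was at 62.8 FPKM with Lep listed at 0, against 2124 to 4257 FPKM in the other 24 h libraries.

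The patterns nearest to that of Inha were sought over the 12 libraries without 24 h replicate 3, among 12028 genes with a mean of at least 5 CPM (counts scaled to the size of the library). The measure was the root mean square difference in log2 CPM, each gene centred on its mean before. The 5 nearest genes were Tspan11 (0.386), Smim3 (0.411), Sema7a (0.456), Slc45a3 (0.495) and Pvr (0.535). Tspan11 encodes a tetraspanin, Sema7a a membrane-anchored semaphorin and Pvr the poliovirus receptor, a cell adhesion protein. Over these libraries Inha lay on average 1.49 above its before mean at 24 h and 0.60 below it at 8 weeks, and Tspan11 lay 1.70 above and 0.54 below. The order of nearest genes was a description, chosen on the same libraries. In 24 h replicate 3, which was not used, Inha was 3.91 above its before mean, while Tspan11 was at -0.60, Smim3 at -0.63, Pvr at -0.08, Sema7a at 1.29 and Slc45a3 at 2.03. When all 13 libraries were used, the 5 nearest genes were Kif23, Slc45a3, Ncapg, Cdk1 and Tead2, of which Slc45a3 was in both sets.

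**Figure D5:**
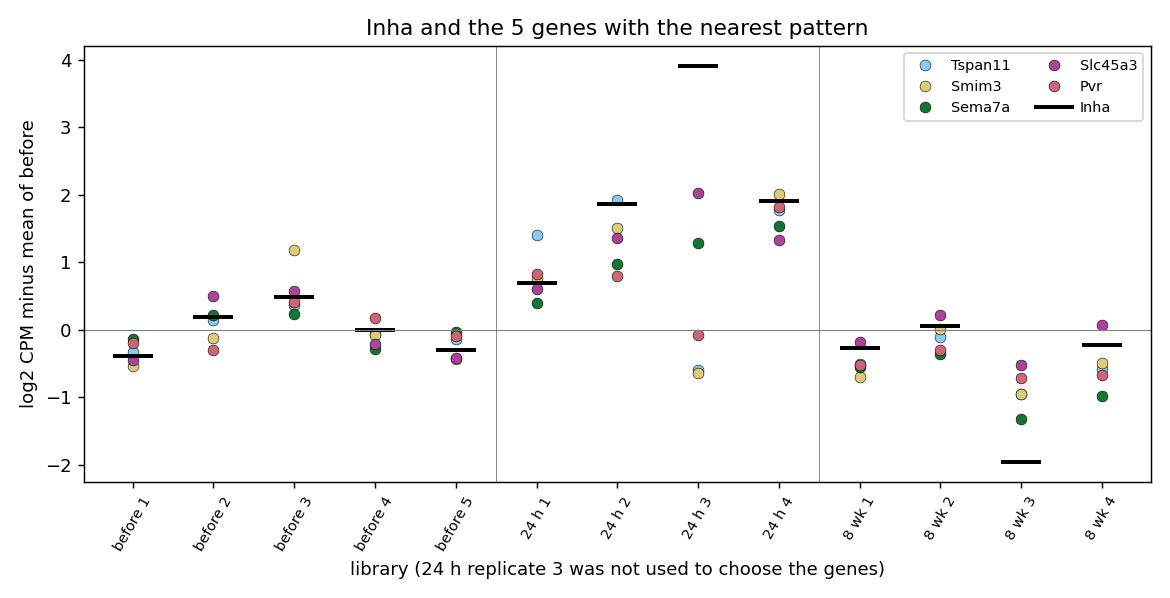
Log2 CPM minus the mean before for Inha (black bars) and the 5 genes nearest to it (points), by library; vertical lines part the groups. In 24 h replicate 3 Inha was at 3.91 and the other 5 genes between -0.63 and 2.03.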

How the data were processed

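RNA-seq libraries of 13 adrenal samples were used, with groups taken from the sample labels. Per the submitters' processing notes, bcl2fastq 2.17 and TopHat2 2.0.14 were used with mm10 (GRCm38); the sources used here do not name the program that estimated the counts. Per the file headers, the authors deposited read counts and FPKM per RefSeq transcript. Between 43.3 and 46.4% of the counts in a library were whole, with counts of 0 included. The counts the authors deposited were therefore read as estimated counts (expected counts). The authors' deposited table also gives p-values, q-values and log2 ratios of 8 weeks to before. The tables of the before and 8 week groups list 19655 transcripts and that of the 24 h group 19191.

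Expected counts of the 18738 transcripts listed in all tables were summed per gene, rounded and tested with edgeR 4.0.16 in R 4.3.3 (TMM scaling, filterByExpr, quasi-likelihood F test, all 13 libraries in 1 fit, Benjamini-Hochberg adjustment over 14078 genes, threshold 0.05). The SE is the log2 fold change divided by the square root of F. FPKM was summed over the same transcripts. The edgeR step was tested on simulated counts that had the spread of the before libraries, so without a library like 24 h replicate 3. The other steps were not tested in this way. DESeq2 1.42.0, limma 3.58.1 with library weights, other scalings, filters and sample sets were alternatives. Motifs were searched on both strands of RefSeq promoters.

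The members and all lists were chosen with earlier results of these data known. Named genes were the members, at most the 4 genes called with the lowest p at 8 weeks in each of 4 pathway lists, receptors and SMADs beside a member described, and the 5 genes nearest to Inha; Nr5a2, Gata4, Foxl2, Gdf9, Nr4a1, Lep, Prss57, Orc4, Gm43422, Gm47040 and the ratios of FPKM were named after their values were seen. At 8 weeks against before, 20.5% of all genes were called higher and 16.4% lower (24.3% and 23.4% without 24 h replicate 3). In a fit of these 2 groups alone 52.9% were called in either direction. Beside these shares, the zona glomerulosa list gave 0 higher and 4 lower calls of 6 (6 lower without 24 h replicate 3). The medulla list gave 0 calls of 8 (7 higher in the fit of these 2 groups alone). Capsule cells and fibroblasts gave 6 higher of 8, and lymphocytes 8 higher of 8. Endothelial cells gave 1 higher and 1 lower of 8 (1 and 4 without 24 h replicate 3, 3 and 3 in the fit of these groups alone). Gonad-type cells gave 1 higher of 2 and neutrophils 2 higher of 2 (1 in that fit). The neutrophil list summed to 1814 FPKM in 8 week replicate 1. In the other 8 week libraries it was at 8.87 to 21.06 FPKM, within the 0.524 to 58.95 FPKM before.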

Additional observations from a re-analysis of the deposited data

Results flagged for a closer look

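The level of Fst in 24 h replicate 3, 19.9 FPKM, lay apart from the other 24 h libraries, of which the nearest was at 1.82 FPKM; the gap was 0.925 of the range of the group, over Dixon's 95% limit for 4 libraries. It came from the library in which Gata4, Nr5a2 and Gdf9 were also far above the other 24 h libraries. The test was run on 21 groups of member values, without the 24 h values of Inha, which chose that gene, and marked this 1; chance marks about 1 group in 20.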

How the results depend on the processing

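The 19 tested member results were recomputed under 21 alternatives, and 337 of 396 values kept their direction and side of the threshold; 33 lost the call, 9 gained it and 17 in 5 results changed sign. DESeq2 gave no p for the 3 Fst results. Not all 21 alternatives were separate fits. With no filter on low counts, as many genes were tested and called as in the main fit in every comparison. The values of Inha at and from 24 h carry no test and are not in that count. The number of members called at 8 weeks against before, 2, was 4 with only these 2 groups in the fit, 4 with every transcript listed for both, 4 with library weights, and 1 to 2 when 1 library was left out. At 24 h against before the 3 calls became 1 with only the 2 groups, 1 with every transcript, 1 without both 24 h replicate 3 and before replicate 1, 1 with library weights, and 0 to 3 when 1 library was left out (0 without before replicate 4; 1 without before replicate 5 or without 24 h replicate 3). At 8 weeks against 24 h the 1 call became 0 with only the 2 groups, 0 with every transcript, 3 without both libraries, and 0 to 2 when 1 library was left out (0 without 8 week replicate 3; 2 without 24 h replicate 2 or 3). In both comparisons with 24 h, the fit of only the 2 groups and that of every transcript tested and called the same numbers of genes. They are not separate alternatives there. Changes of sign were as follows. From 24 h to 8 weeks, Inhbb became 1.05 with library weights, Fst 1.70 without both libraries, 1.28 with weights and -1.04 to 1.70 when 1 library was left out, and Acvr1b 0.019, 0.137 and -0.17 to 0.087 in the same order. From before to 24 h, Fstl3 ran from -0.46 to 0.94 when 1 library was left out, and Acvr2a became -0.003 without scaling, -0.047 without both libraries, -0.184 with weights and -0.052 to 0.136 when 1 library was left out. The cause was not tested. The library weights and the fits without both libraries were added after seeing the data.

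Replicate numbers were shared across groups, but no pairing of the libraries by number was seen. The correlation of deviations ran from -0.125 to 0.277 over 12 same-numbered pairs, and 2 were over 0.1. Of 13 libraries, 3 correlated best with their own number. With so few libraries per group, these values cannot exclude a pairing. With the replicate number as a block, 1 member was called at 8 weeks against before, 0 at 24 h against before and 1 at 8 weeks against 24 h, and the Fst value from 24 h to 8 weeks was 0.45. Over all genes the block fit called 880 higher and 432 lower at 24 h against before, in place of 1774 and 934, and 934 and 727 at 8 weeks against 24 h, in place of 1428 and 1495.

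Depth limits Fst before TAM (6 to 48 estimated reads per library) and Acvr2b (15 to 28). Over all genes, calls at 8 weeks against before were 2882 higher and 2311 lower, and 4344 and 3757 with library weights; with 24 h replicate 3 left out, calls at 24 h against before were 3998 in place of 2708.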
